A study of Mus musculus with 6 samples.

Results

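The genes described here are those of glutathione metabolism and of the enzymes that remove oxidants. They comprise every glutathione transferase of the alpha, kappa, mu, omega, pi, theta and zeta classes, the microsomal transferases, the glutathione peroxidases, and 15 named genes of glutathione supply, NRF2 signaling, superoxide dismutation and peroxide removal. By symbol, 48 of the 24063 genes in the count tables belong to this set, and 44 of these 48 had enough counts to be tested. The samples were penile tumors of 3 SA mice (PB-Cre+ Smad4L/L ApcL/L) and penile epithelium of 3 wild type (WT) mice. All 6 mice were male and 5 months old, and no animal received a carcinogen. In SA mice the Cre recombinase (the PB-Cre4 line) is driven by an androgen-responsive promoter, and the tumors were taken as whole tissue that also holds cells without recombination. The labels give C57BL/6 for the WT mice and no strain for the SA mice, so that genotype, tumor and any strain difference cannot be told apart. Levels are given as CPM, counts scaled to library size with edgeR's TMM factors, or, where different genes are compared, as the deposited TPM, which also account for transcript length. Differences are given as the log2 ratio of SA over WT, ± its standard error where one is printed, so that a negative value means lower in SA tumors.

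Glutathione is the main soluble thiol of the cell. Glutamate-cysteine ligase, made of the catalytic subunit Gclc and the modifier subunit Gclm, performs the limiting step of its synthesis, glutathione synthetase (Gss) completes it, and glutathione reductase (Gsr) regenerates the reduced form with NADPH. Transferases attach glutathione to reactive compounds, and peroxidases use it to reduce peroxides. NRF2, encoded by Nfe2l2, switches on many of these genes through antioxidant response elements, and KEAP1 marks NRF2 for degradation.

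The set did not move as a block. Of the 44 members tested, 15 were higher in SA tumors and 10 were lower at an adjusted p under 0.01 (edgeR's quasi-likelihood F-test, Benjamini-Hochberg adjustment over all genes), and 19 did not pass. Among all 16336 genes tested, 20.1% were higher, 17.5% were lower and 37.6% passed in either direction by the same rule. Among the members tested, values did not overlap between the groups for 15 that were higher and 16 that were lower in every SA tumor, beside 32.7% and 30.7% of all genes. Without the second WT penis, 10 members in place of 15 passed the adjusted p as higher and 6 in place of 10 as lower. The median log2 ratio of the members was -0.07, beside 0.03 for all genes. At the thresholds of the study, which add a fold change of at least 4, 5 members were upregulated (Gstm7, Gstm3, Gpx2, Mgst2 and Gss) and 1, Gstm1, was downregulated, against 9.41% and 3.59% of all genes. TMM scaling bears on the split between directions: without it, by library totals only, the median of all genes shifted by 0.29 and the members split into 17 higher and 6 lower (73.9% of the calls higher, beside 60.0% with TMM).

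**Figure D1:**
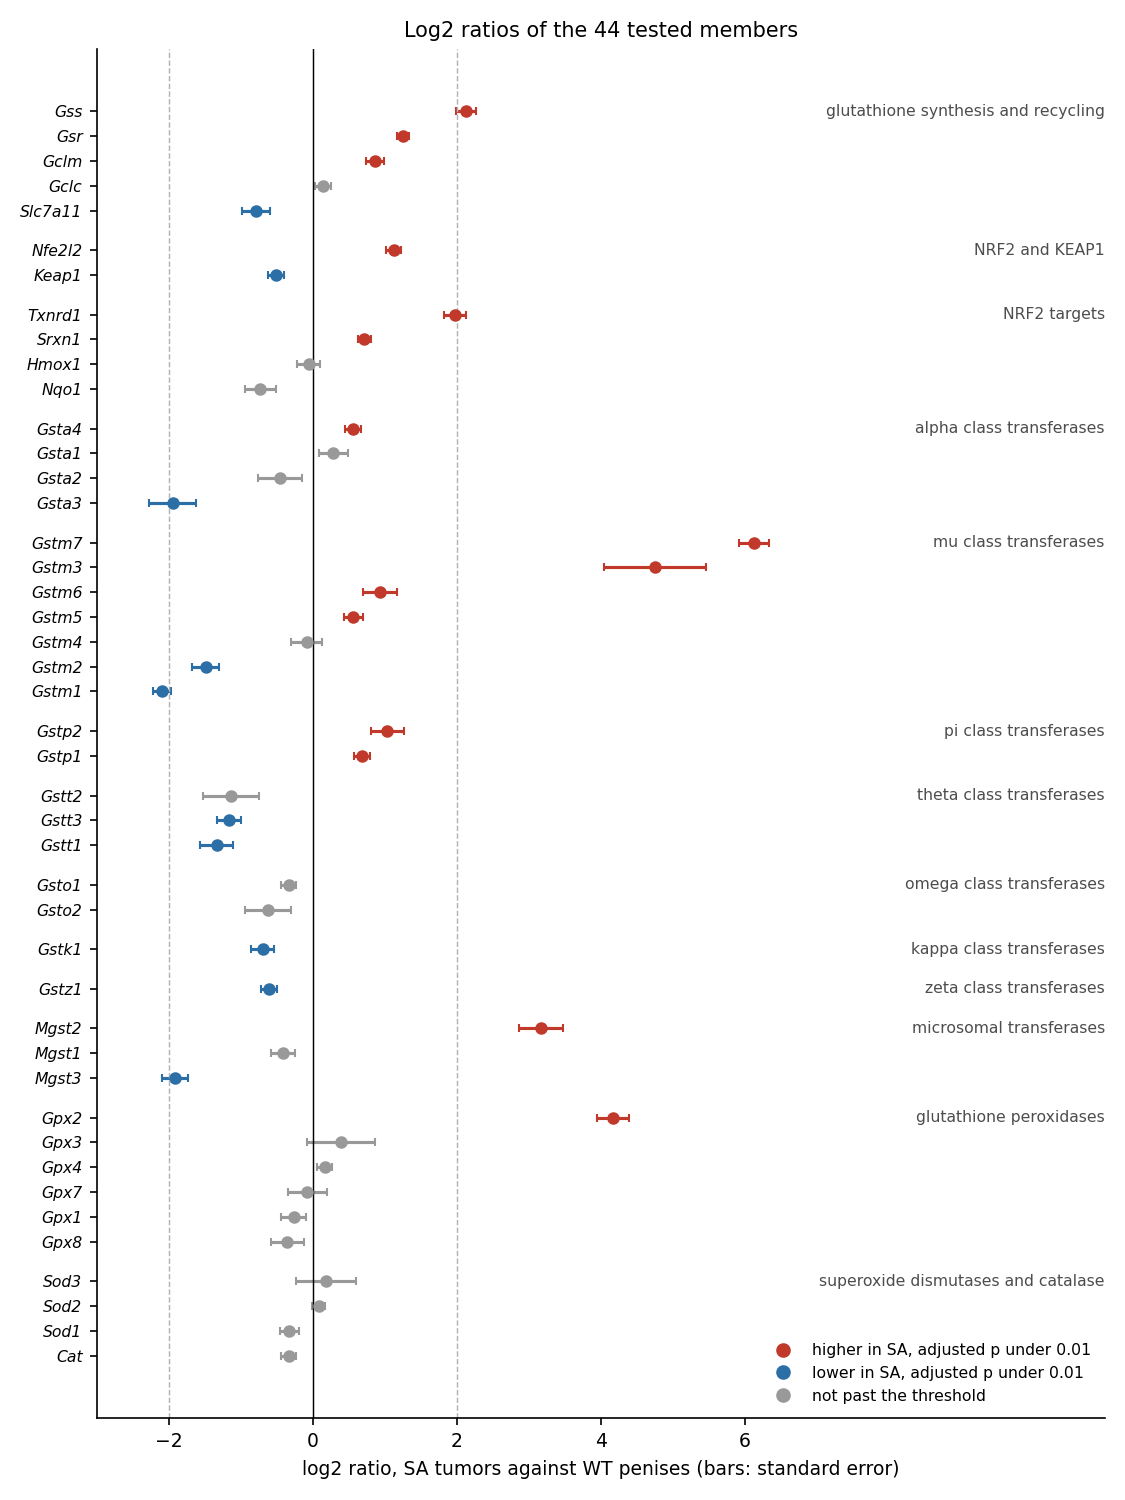
Log2 ratios of SA to WT for the 44 members tested, by group, with the standard error as bars and the fold-change threshold as dashed lines (3 samples in each group). The largest increase is that of Gstm7 at 6.13, and the largest decrease is that of Gstm1 at -2.10, both in the mu class.

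Gene rows held between 23828283 and 110509147 counts per library, with the third SA tumor the deepest, at 4.42 times the median total of the remaining libraries. A count of 3 corresponds to 0.0244 to 0.137 CPM, a floor that covers counting error only. Of the genes deleted in the SA mice, Smad4 was lower (39.6 ± 5.61 CPM in SA tumors, 67.8 ± 5.92 in WT penises; SD, n = 3 each), and Apc was higher (214 ± 33.4 against 79.6 ± 15.1 CPM; SD, n = 3 each); counts over a whole transcript do not test the loss of floxed exons. Keratinocyte markers of the labelled epithelium were abundant in every sample, and markers of other cell types were present as well. The summed CPM of 7 keratinocyte markers was 14313 to 16532 in SA tumors and 30116 to 32547 in WT penises, and 5 of the 7 were lower. All 4 cornified keratinocyte markers were lower (10833 to 17728 against 44776 to 50734 CPM). All 6 smooth muscle markers were lower, at 35.5 to 124 CPM against 1538 to 2056. Of 4 Schwann cell markers, 3 were lower (36.0 to 52.7 against 185 to 223 CPM). Fibroblast markers summed to 975 to 3145 against 3829 to 4170.4 CPM, with 1 of 6 lower, and endothelial markers to 157 to 265 against 292 to 340.2 CPM, with 2 of 6 lower. All 5 granulocyte markers were higher (1425 to 2487 against 56.6 to 120.1 CPM). None of the 5 macrophage and 7 erythroid markers tested passed (109.8 to 264 against 168 to 235 CPM, and 19.8 to 231 against 221 to 344 CPM). Skeletal muscle markers were at 5.65 to 7.84 against 10.7 to 15.7 CPM, with 1 of 4 tested higher, 1 lower and Myh4 at 0 in every WT sample. Sebaceous and preputial gland markers were at 26.3 to 33.5 against 18.5 to 19.4 CPM, with 3 of 4 tested higher, and of the adipocyte list, 1 gene was tested and higher (122 to 132 against 3.03 to 4.51 CPM summed), with Adipoq and Lep at a count of 0 in every WT sample. No marker of a list was at 0 in all SA tumors. In bulk tissue, fewer cells of a type and less RNA per cell cannot be told apart, and the part of these shifts in the results below was not tested.

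In the synthesis and recycling of glutathione, 3 of 5 genes were higher in SA tumors and 1 was lower. The shares of all genes were 20.1% higher and 17.5% lower. Gss stood at 85.6, 73.7 and 59.8 CPM in the 3 SA tumors and at 17.0, 17.4 and 15.9 CPM in the WT penises. Every SA tumor was thus above every WT penis, with a log2 ratio of 2.12 ± 0.14 (adjusted p = 1.11e-05). With any one sample left out the log2 ratio was 1.99 to 2.25. It fell below the fold-change threshold without the first SA tumor, at 1.99. Gsr, the reductase, was at 77.4, 78.8 and 74.2 CPM against 33.3, 33.0 and 30.8 CPM. The groups were again apart, with a log2 ratio of 1.25 ± 0.09 (adjusted p = 1.47e-05).

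The subunits of glutamate-cysteine ligase differed from each other. The modifier subunit Gclm rose from 28.6, 32.6 and 30.5 CPM in WT penises to 59.8, 46.3 and 60.7 CPM in SA tumors, a log2 ratio of 0.86 ± 0.13 (adjusted p = 7.08e-04). The catalytic subunit Gclc had overlapping values, 76.2, 81.2 and 76.6 CPM in SA tumors and 60.2, 76.6 and 75.8 CPM in WT penises, with a log2 ratio of 0.14 ± 0.11 (adjusted p = 0.341). The ratio of Gclc to Gclm within a sample, on the TPM scale, was 0.762 to 1.06 in SA tumors and at least 1.28 in every WT penis. Slc7a11, the cystine transporter that supplies cysteine for the first step, was the member of this group that was lower in SA tumors. It was at 177, 102 and 143 CPM against 215, 264 and 250.5 CPM, with a log2 ratio of -0.79 ± 0.19 (adjusted p = 0.00794). This call rested on the full set of samples: it held without the first SA tumor, and without any one of the other 5 samples the adjusted p was 0.0119 to 0.0249. By library totals only, the log2 ratio of Slc7a11 was -0.50 (adjusted p = 0.0535).

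**Figure D2:**
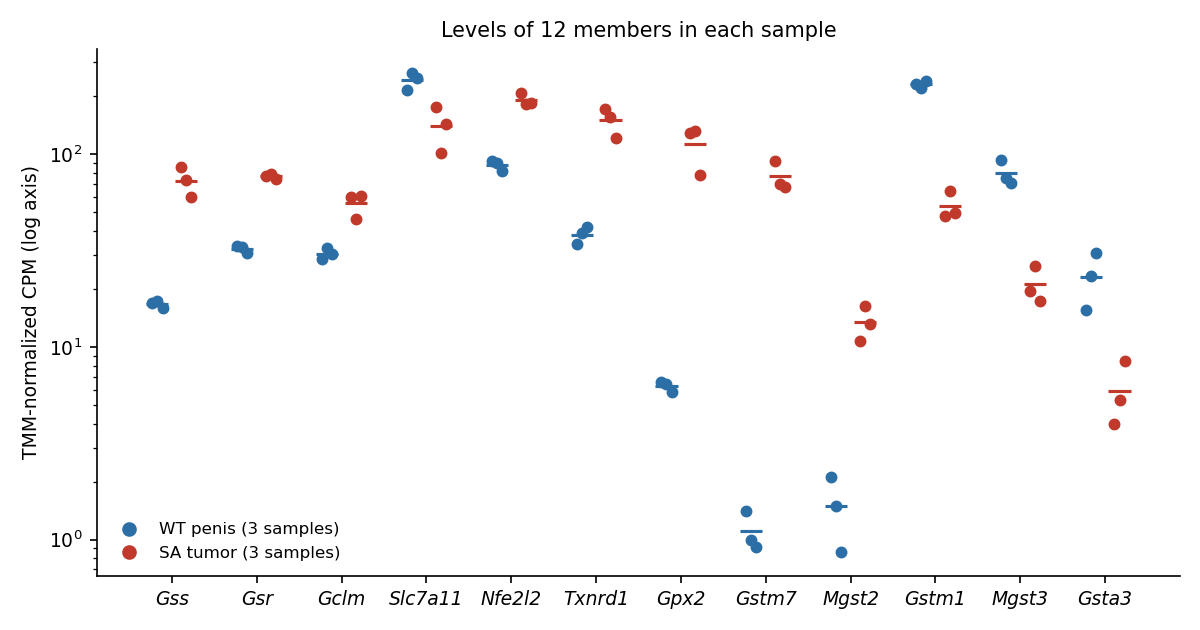
TMM-normalized CPM on a log axis for 12 members in each WT penis and SA tumor, with points for the 3 samples of a group and a line at their mean. The 12 were picked from members past the adjusted p, and members with overlapping values are not shown. The groups therefore do not overlap for any of the 12, beside 32.7% (higher) and 30.7% (lower) of all genes. The gap is widest for Gstm7, at about 1 CPM in WT penises and 68.1 to 92.8 CPM in SA tumors.

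Nfe2l2, which encodes NRF2, rose from 92.6, 89.9 and 81.9 CPM in WT penises to 208, 183 and 185 CPM in SA tumors. The log2 ratio was 1.12 ± 0.10 (adjusted p = 3.92e-05), and it passed in all 6 fits that left out a sample. Keap1 was lower, at 58.1, 65.8 and 58.9 CPM against 95.9, 83.3 and 80.2 CPM, with a log2 ratio of -0.51 ± 0.11 (adjusted p = 0.00417). The call of Keap1 held without the second SA tumor and without the third WT penis, and the adjusted p was 0.0121 to 0.0152 without any one of the other 4 samples. By library totals only its log2 ratio was -0.22 (adjusted p = 0.0863). On the TPM scale, the level of Nfe2l2 was 1.75 to 1.95 times that of Keap1 in WT penises and 5.03 to 6.47 times in SA tumors.

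Of the 4 genes grouped here as NRF2 targets (Txnrd1, Srxn1, Nqo1 and Hmox1), 2 were higher in SA tumors and 2 did not pass. The shares of all genes were 20.1% higher and 17.5% lower. These 4 do not stand for all members that NRF2 can switch on, and the others are given with their own groups. Txnrd1, the cytosolic thioredoxin reductase, was at 172, 156 and 122 CPM in SA tumors and at 34.3, 39.0 and 41.8 CPM in WT penises. Its log2 ratio of 1.97 ± 0.15 (adjusted p = 1.67e-05) was just under the fold-change threshold, which it crossed in 2 of the 6 fits that left out a sample. Srxn1, the sulfiredoxin that restores overoxidized peroxiredoxins, was higher at 78.9, 73.3 and 68.7 CPM against 44.1, 44.2 and 46.6 CPM (log2 ratio 0.71 ± 0.09, adjusted p = 3.54e-04).

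Nqo1, the quinone reductase often read as an indicator of NRF2 activity, was at 25.1, 35 and 46.7 CPM in SA tumors and at 62.5, 61.9 and 53.3 CPM in WT penises. All SA tumors were below all WT penises, and the log2 ratio of -0.73 ± 0.21 (adjusted p = 0.0172) did not pass the threshold. Without the third SA tumor, in which Nqo1 was highest, the log2 ratio was -0.98 (adjusted p = 0.00170), and DESeq2 with all samples gave -0.74 (adjusted p = 0.00168). Hmox1, the heme oxygenase that responds to heme and oxidants, overlapped between the groups, at 60.2, 78.2 and 92.9 CPM against 90.2, 77.6 and 73.6 CPM (log2 ratio -0.06 ± 0.16, adjusted p = 0.778). On the TPM scale, Txnrd1 was at 0.249 to 0.356 times the level of Nqo1 in WT penises and at 1.19 to 3.11 times in SA tumors.

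The members whose RefSeq promoter (GRCm38.p6, 250 bases before to 50 after a transcript's start) holds the core letters of an antioxidant response element were searched for as TGACNNNGC on both strands. Promoters were matched for 41 members, with none for Gclc, Gpx2-ps1, Gsr, Gsta4, Gstt2, Hmox1 and Sod3. Of 55 promoters of members, 9 (16.4%) held these letters, against 12.4% of all 32851 promoters in the table. The matches are shown because they lie in members that moved in both directions and in members that did not pass. Each line gives the gene's strand from 5′ to 3′, with the match in capitals, and where the match is on the other strand the capitals read as its reverse complement.
Gclm (chr3:122245413-122245441): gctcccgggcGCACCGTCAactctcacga
Gstm5 (chr3:107895802-107895830): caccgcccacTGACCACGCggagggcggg
Gstm7 (chr3:107931725-107931753): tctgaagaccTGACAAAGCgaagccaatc
Nfe2l2 (chr2:75704885-75704913): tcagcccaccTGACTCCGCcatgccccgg
Srxn1 (chr2:152105542-152105570): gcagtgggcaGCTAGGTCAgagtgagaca
Txnrd1 (chr10:82859104-82859132): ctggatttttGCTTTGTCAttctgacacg
Gsta3 (chr1:21240454-21240482): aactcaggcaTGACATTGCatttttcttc
Mgst1 (chr6:138140461-138140489): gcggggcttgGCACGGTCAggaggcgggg
Sod1 (chr16:90220696-90220724): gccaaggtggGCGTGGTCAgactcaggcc
A gene can have several promoters in the table, and the match was in 1 of 3 for Txnrd1 and in 1 of 2 for Gstm7 and for Mgst1. The table does not say which promoter belongs to the counted transcript. The AP-1 letters TGANTCA, which can overlap the element, were in 5 member promoters (Gstm5, Gstp1, Gstp2, Mgst2 and Srxn1; 9.09% against 7.81% of all promoters). The TCF/LEF letters CTTTGAT, in 3.73% of all promoters, were in none of the members' promoters. A match of letters describes a sequence and not a bound site. Other forms of the element and bases outside the promoters were not searched. A member without a match, such as Gstp1 or Gstp2, is therefore not shown to lack an element.

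The mu class transferases lie side by side on chromosome 3, within bases 107895854 to 108045179 of mm10, and their order there separated the directions. From the end at Gstm5, the first 4 genes (Gstm5, Gstm7, Gstm6 and Gstm3) were higher in SA tumors, the next 2 (Gstm2 and Gstm1) were lower, and the last, Gstm4, did not pass. Gstm7 (bases 107926334 to 107931877) was at 92.8, 70.5 and 68.1 CPM in SA tumors and at 1.40, 1.00 and 0.911 CPM in WT penises. This 69.9-fold difference of the means was the largest of the set, with a log2 ratio of 6.13 ± 0.21 (adjusted p = 1.04e-06). Leaving out any one sample gave 5.97 to 6.31.

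Gstm1 (bases 108012250 to 108017973) moved the other way, from 232, 220 and 241 CPM in WT penises to 48.1, 64.5 and 49.5 CPM in SA tumors. Its log2 ratio was -2.10 ± 0.13 (adjusted p = 7.29e-06) and stayed between -2.24 and -2.03 with any one sample left out. By library totals only, Gstm1 stayed lower but was no longer past the fold-change threshold. Gstm2 followed it, at 19.6, 34.3 and 30.3 CPM against 85.7, 78.5 and 72.0 CPM (log2 ratio -1.49 ± 0.19, adjusted p = 3.44e-04). For this pair, which had the largest opposite changes of the class, the promoter in the table that lies farthest upstream is printed, to set the sequences side by side.
Gstm7 (chr3:107931768-107932067, minus strand): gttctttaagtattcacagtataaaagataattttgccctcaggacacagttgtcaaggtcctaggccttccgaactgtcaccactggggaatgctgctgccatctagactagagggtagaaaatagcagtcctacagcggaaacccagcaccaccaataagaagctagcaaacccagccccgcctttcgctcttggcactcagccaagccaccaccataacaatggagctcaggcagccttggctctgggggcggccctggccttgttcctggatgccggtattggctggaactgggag
Gstm1 (chr3:108017924-108018223, minus strand): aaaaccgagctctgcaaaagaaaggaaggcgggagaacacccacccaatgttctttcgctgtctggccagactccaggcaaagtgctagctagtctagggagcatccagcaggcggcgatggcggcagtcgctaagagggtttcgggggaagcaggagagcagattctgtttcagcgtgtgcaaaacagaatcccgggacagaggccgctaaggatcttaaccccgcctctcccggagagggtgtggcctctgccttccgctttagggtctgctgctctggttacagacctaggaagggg
Neither of them holds the letters of the antioxidant response element. The match shown above for Gstm7 is in the promoter of a start farther inside the gene.

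**Figure D3:**
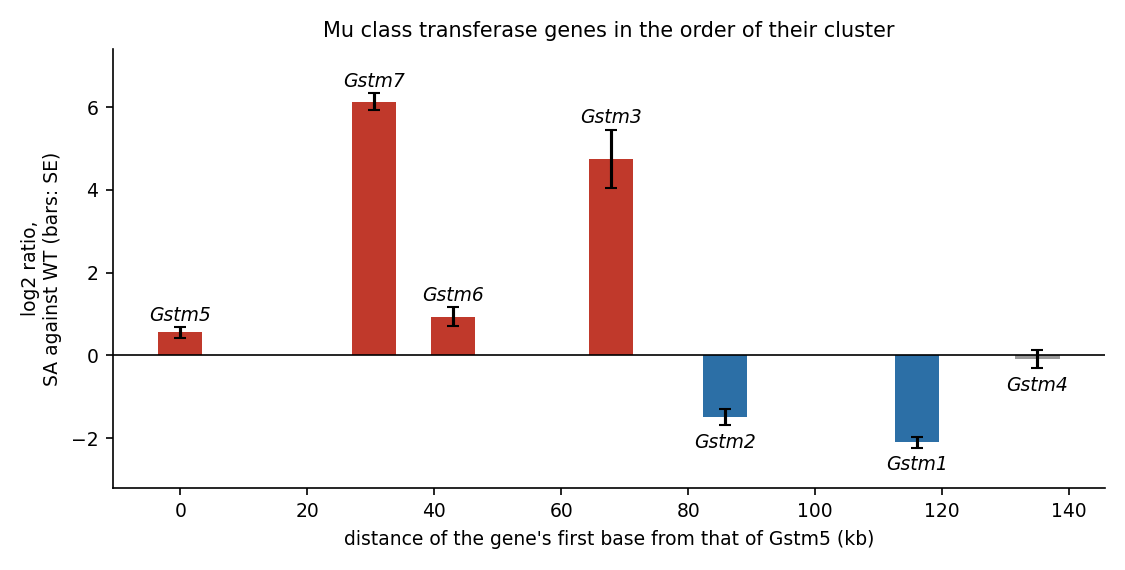
Log2 ratios of SA to WT for the 7 mu class genes (bars: standard error, 3 samples in each group) against the distance of each gene's first base from that of Gstm5. The genes from 0 to 67.8 kb are higher, those at 85.8 and 116 kb are lower, and Gstm4 at 135 kb did not pass the threshold.

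Among the tested genes flanking the cluster, Eps8l3 and Gnai3 passed, in opposite directions, and the others did not. Among all genes, 37.6% passed in either direction. Eps8l3, before Gstm5, was higher (log2 ratio 1.01 ± 0.20, adjusted p = 0.00323), Ampd2, after Gstm4, did not pass (-0.05 ± 0.12, adjusted p = 0.767), and Gnai3, farther along, was lower (-0.62 ± 0.12, adjusted p = 0.00244). 4933431E20Rik, which overlaps the start of Gstm5, had a log2 ratio of 0.42 ± 0.13 (adjusted p = 0.0217). Ahcyl1, Csf1 and Gnat2 had log2 ratios of 0.37, -0.12 and 0.43 (adjusted p = 0.0115, 0.649 and 0.433). These neighbors were named after their values were seen.

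The remaining mu class changes were smaller or rested on few counts. Gstm5, at 102, 82.7 and 80.4 CPM against 67.4, 56.1 and 56.5 CPM, had a log2 ratio of 0.56 ± 0.13 (adjusted p = 0.00626). Gstm6, at 5.61, 5.00 and 4.30 CPM against 2.08, 2.90 and 2.78 CPM, had a log2 ratio of 0.93 ± 0.23 (adjusted p = 0.00866). Both calls were near the threshold. Gstm5 kept it only without the third SA tumor or the first WT penis (adjusted p 0.0127 to 0.0365 without another sample), and Gstm6 only without the third SA tumor (0.0230 to 0.0323 without another). The SA tumors held 27, 21 and 89 counts of Gstm3, and the WT penises held 0, 2 and 0, a pooled ratio of 28.1 (95% exact interval for counting error, 7.64 to 235). Its fitted log2 ratio of 4.75 ± 0.71 (adjusted p = 6.75e-04) became 8.16 without the second WT penis, the only one with a count. Gstm4 had overlapping values, 6.16 ± 1.60 against 6.61 ± 0.789 CPM (SD, n = 3 each; edgeR log2 ratio -0.09 ± 0.22, adjusted p = 0.761). The sign of that value turned with library totals, with limma-voom, and without the first or the second SA tumor.

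Neighbors can share reads, so the 76-base words of each gene's transcript were looked up in all other annotated transcripts (GENCODE M21). For Gstm7, Gstm4 and Mgst2 no word was shared, and for Gpx2 9.98% were. Of the Gstm1 words, 14.6% occur in another gene or pseudogene, and of the Gstm3 words 21.3%. Gstm5 shares 11.8% with the noncoding gene 4933431E20Rik on the opposite strand, and whether counting used strand is not given in the sources used here. Gsta1 (86.1%), Gstp2 (68.0%), Gstp1 (57.5%), Gpx4 (55.0%) and Gsta2 (46.3%) shared the most, mainly with paralogs and pseudogenes, and their single-gene values are uncertain to that extent.

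Among the other cytosolic classes, both pi class genes were higher, and 2 of the 3 theta class genes tested were lower. The shares of all genes were 20.1% higher and 17.5% lower. Gstp1 was at 53.6, 58.1 and 49.5 CPM against 37.4, 31.6 and 31.7 CPM (log2 ratio 0.68 ± 0.11, adjusted p = 0.00125), and Gstp2 at 4.87, 4.93 and 3.70 CPM against 1.90, 2.24 and 2.41 CPM (log2 ratio 1.03 ± 0.23, adjusted p = 0.00547). Without the second WT penis, the adjusted p of Gstp1 was 0.0122. Gstp2 passed only without the third SA tumor, with adjusted p of 0.0137 to 0.0268 without another sample. No values of the pi class overlapped between the groups. In the theta class, Gstt1 was at 2.64, 4.37 and 4.49 CPM against 8.77, 10.5 and 10.1 CPM, a log2 ratio of -1.34 ± 0.23 (adjusted p = 0.00145). Gstt3 was at 7.91, 8.80 and 12.1 CPM against 23.1, 21.5 and 20.8 CPM, a log2 ratio of -1.17 ± 0.17 (adjusted p = 6.70e-04).

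Gstt2, also of the theta class, was at 1.04, 2.02 and 3.57 CPM against 4.93, 4.84 and 5.37 CPM and did not pass (log2 ratio -1.14 ± 0.39, adjusted p = 0.0369). Without the third SA tumor, where it was highest, the log2 ratio was -1.71 (adjusted p = 0.00228), and DESeq2 with all samples gave -1.17 (adjusted p = 0.00629). Gstt4 had 1, 2 and 24 counts in SA tumors and 0, 0 and 1 in WT penises, too few to test.

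The alpha class held both directions. Gsta4, which conjugates the lipid peroxidation product 4-hydroxynonenal, was at 263, 295 and 299.8 CPM in SA tumors and at 200, 209 and 174 CPM in WT penises (log2 ratio 0.56 ± 0.11, adjusted p = 0.00279). Its call held without the first or the third SA tumor, and the adjusted p was 0.0105 to 0.0186 without another sample. Gsta3, at 3.97, 5.29 and 8.43 CPM against 15.6, 23.4 and 30.6 CPM, was lower (log2 ratio -1.95 ± 0.33, adjusted p = 0.00164). Without the second SA tumor its adjusted p was 0.0108. Gsta1 and Gsta2 were below 10 CPM in every sample and did not pass (adjusted p = 0.262 and 0.251).

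Of the classes with few members, Gstz1, which also serves tyrosine breakdown, was lower at 15.1, 16.0 and 17.3 CPM against 25.2, 24.6 and 24.0 CPM (log2 ratio -0.61 ± 0.11, adjusted p = 0.00191). Without the second WT penis the adjusted p was 0.0125, and by library totals only it was 0.0328. Gstk1, the mitochondrial and peroxisomal kappa enzyme, was at 8.75 ± 1.11 against 14.2 ± 1.55 CPM (SD, n = 3 each; edgeR log2 ratio -0.70 ± 0.16, adjusted p = 0.00568). It passed only without the second SA tumor, with adjusted p of 0.0111 to 0.0242 without another sample, and by library totals only its adjusted p was 0.0429. Gsto1 was at 536, 535 and 493 CPM against 723, 647 and 607 CPM and did not pass (log2 ratio -0.34 ± 0.11, adjusted p = 0.0272). Gsto2 was at 1.17 CPM or less in every sample (adjusted p = 0.137).

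The 3 microsomal transferases, which are membrane proteins, went apart. Mgst2, which can also form leukotriene C4, was at 10.8, 16.3 and 13.2 CPM in SA tumors and at 2.12, 1.5 and 0.865 CPM in WT penises. This was a 9.0-fold difference, with a log2 ratio of 3.17 ± 0.31 (adjusted p = 7.37e-05), and it passed both thresholds in all 6 fits that left out a sample. Mgst3 was lower, at 19.6, 26.4 and 17.4 CPM against 93.1, 75.0 and 70.7 CPM (log2 ratio -1.92 ± 0.18, adjusted p = 5.37e-05). Mgst1 was at 17.3, 25.8 and 26.6 CPM against 32.4, 30.3 and 30.4 CPM and did not pass (log2 ratio -0.42 ± 0.17, adjusted p = 0.0642).

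Within each sample, the summed TPM of the 24 transferases can be divided by class. The omega class, nearly all of it Gsto1, was the largest in every sample, with 36.8% to 39.6% in SA tumors and 40.2% to 41.9% in WT penises. The alpha class held 24.6% to 28.8% in SA tumors, where it came next, and 15.5% to 17.9% in WT penises. The mu class held 18.8% to 21.2% in SA tumors and 22.9% to 24.9% in WT penises, where it came next after omega, and its make-up differed. Gstm1 made up 54.7% ± 2.68 of mu class TPM in WT penises and 17.9% ± 3.09 in SA tumors (SD, n = 3 each), while Gstm7 went from 0.215% to 0.314% up to 22.9% to 28.7%. Gstm5, at 38.6% to 45.1%, was the leading mu class gene of the SA tumors.

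**Figure D4:**
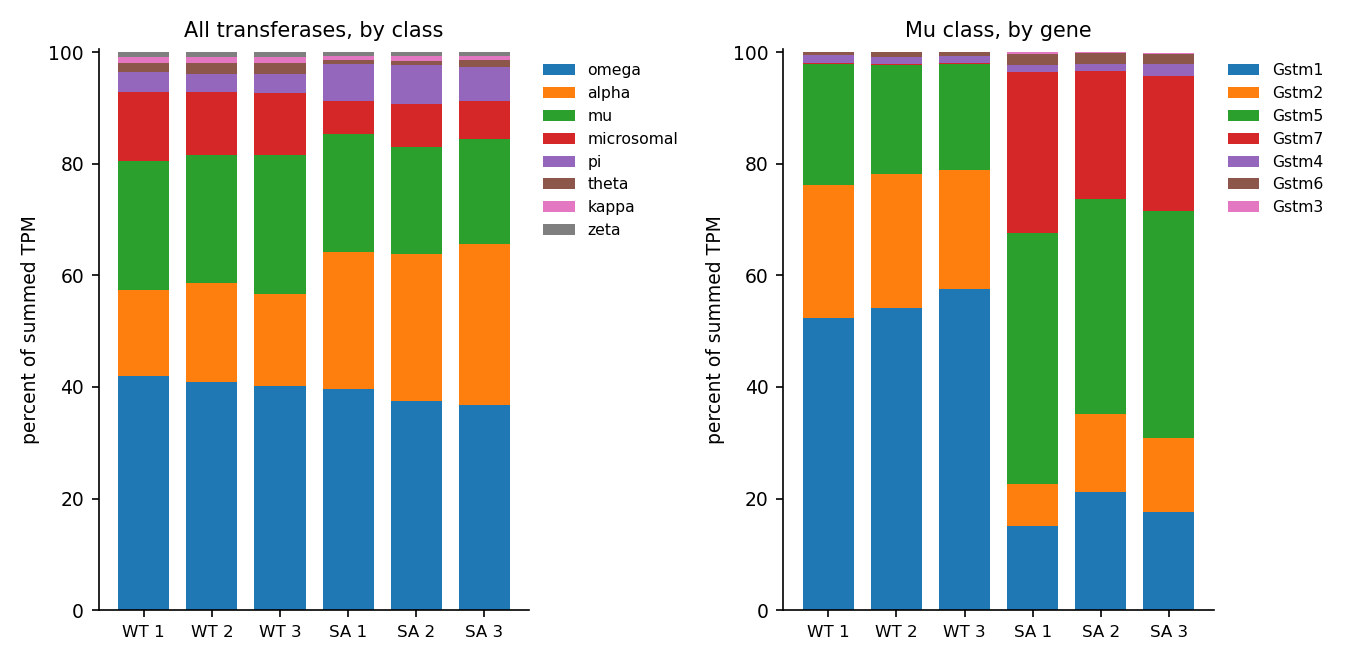
Left, percent of the summed TPM of the 24 transferases held by each class in every sample. Right, percent of mu class TPM held by each mu gene, where Gstm1 falls from 52.3% or more in each WT penis to 21.2% or less in each SA tumor and Gstm7 makes up 22.9% to 28.7% in SA tumors.

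Among the glutathione peroxidases, 1 of the 6 genes tested passed, beside 37.6% of all genes in either direction. Gpx2, a peroxidase typical of gut and other epithelia, was at 129, 133 and 78.5 CPM in SA tumors and at 6.60, 6.41 and 5.83 CPM in WT penises. Its 18.1-fold difference gave a log2 ratio of 4.17 ± 0.22 (adjusted p = 3.63e-06), between 4.04 and 4.38 with any one sample left out. On the TPM scale, Gpx2 ranked 35 of the 48 members in WT penises and 5 in SA tumors. It held 1.30% to 1.51% of peroxidase TPM in WT penises and 14.4% to 29.9% in SA tumors, with the lowest share in the third SA tumor.

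The other peroxidases did not pass. Gpx1, the abundant cytosolic enzyme, was at 185, 259 and 218 CPM against 321, 250.1 and 226 CPM (log2 ratio -0.27 ± 0.17, adjusted p = 0.204). Gpx4, which reduces lipid peroxides in membranes and restrains ferroptosis, was at 56.3, 71.0 and 62.2 CPM against 60.4, 54.1 and 55.2 CPM (log2 ratio 0.16 ± 0.11, adjusted p = 0.260). Gpx7 and Gpx8, of the endoplasmic reticulum, had log2 ratios of -0.08 and -0.36 (standard errors 0.27 and 0.23, adjusted p = 0.821 and 0.212). Gpx5 had no count in any sample. Gpx6 had 10, 5 and 1 counts in SA tumors and 0 in each WT penis, and the pseudogene Gpx2-ps1 had 5, 7 and 19 against 1, 1 and 1, both too few to test.

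The extracellular enzymes Gpx3 and Sod3 were uneven among the SA tumors. Gpx3, a peroxidase, was at 55.8, 171 and 220.3 CPM in SA tumors and at 106, 137 and 97.3 CPM in WT penises (log2 ratio 0.39 ± 0.47, adjusted p = 0.521). Sod3, a superoxide dismutase, was at 41.9, 121 and 142 CPM against 104, 84.2 and 82.7 CPM (log2 ratio 0.18 ± 0.42, adjusted p = 0.748). The first SA tumor was the lowest of all 6 samples for both, and it also had the lowest summed CPM of fibroblast markers, 975 against 2493 and 3145 in the other SA tumors. Without that tumor the log2 ratio of Gpx3 was 0.78 (adjusted p = 0.00584) and that of Sod3 was 0.54, and without the third SA tumor they were -0.0041 and -0.14. The part of fibroblast content in these values was not tested.

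The dismutases and catalase showed no call. Sod1, the cytosolic dismutase, was at 63.3, 78.2 and 70.1 CPM against 102, 81.8 and 82.2 CPM (log2 ratio -0.33 ± 0.13, adjusted p = 0.0541). The mitochondrial Sod2 was at 72.5, 65.9 and 64.7 CPM against 65.1, 61.9 and 65.4 CPM (log2 ratio 0.08 ± 0.09, adjusted p = 0.496). Cat was at 81.6 ± 10.1 against 103 ± 5.38 CPM (SD, n = 3 each), below every WT penis in every SA tumor but not past the threshold (edgeR log2 ratio -0.34 ± 0.11, adjusted p = 0.0335). By library totals only, Sod2 (0.36, adjusted p = 0.00845, edgeR) and Gpx4 (0.45, adjusted p = 0.00805, edgeR) passed as higher. With TMM their log2 ratios were 0.08 and 0.16. The median of all genes shifted by 0.29 between these scalings.

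Related genes outside the set were read as 6 lists, with 86 genes in the files. Of the 83 tested, 21 (25.3%) were higher and 16 (19.3%) were lower in SA tumors, beside 20.1% and 17.5% of all genes. Without the second or the third WT penis, 12 and 13 genes in place of 21 were higher. In the thioredoxin system, 4 of 18 genes were higher and 5 were lower. Txn1, the cytosolic thioredoxin that Txnrd1 reduces, was at 263, 317 and 358 CPM in SA tumors and at 1614, 1271 and 1238 CPM in WT penises (log2 ratio -2.14 ± 0.16, adjusted p = 1.73e-05), so that enzyme and substrate moved in opposite directions. Its inhibitor Txnip (log2 ratio -2.86 ± 0.33) and the sestrin Sesn1 (-1.93 ± 0.14) were lower too, with adjusted p of 3.15e-04 and 1.25e-05. Txnrd2, Txnrd3 and Sesn3 were higher, with log2 ratios of 0.85, 0.64 and 0.99 (adjusted p = 0.00325, 0.00655 and 0.00296), and passed in 4, 1 and 3 of the 6 fits with a sample left out.

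In the supply of NADPH, which Gsr and the thioredoxin reductases consume, 4 of 9 genes (44.4%) passed as higher and none as lower. Among all genes, 20.1% were higher and 17.5% were lower. Pgls, Pgd and Taldo1 were lower in every SA tumor than in any WT penis but did not pass. Their log2 ratios were -0.41, -0.36 and -0.35 (adjusted p = 0.0142, 0.0271 and 0.0359, edgeR). Malic enzyme Me1 rose from 28.1 ± 1.68 to 51.7 ± 1.81 CPM and isocitrate dehydrogenase Idh1 from 46.2 ± 3.58 to 88.0 ± 8.46 CPM (SD, n = 3 each; log2 ratios 0.88 and 0.93, adjusted p = 1.35e-04 and 1.92e-04, edgeR). The mitochondrial transhydrogenase Nnt rose from 10.8 ± 1.48 to 24.1 ± 4.11 CPM (SD, n = 3 each; log2 ratio 1.15, adjusted p = 5.75e-04, edgeR). For Nnt as for the other genes, genotype and strain cannot be told apart. G6pdx was the other gene called, in 1 of 6 fits with a sample left out, at a log2 ratio of 0.43 (adjusted p = 0.00951).

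**Figure D5:**
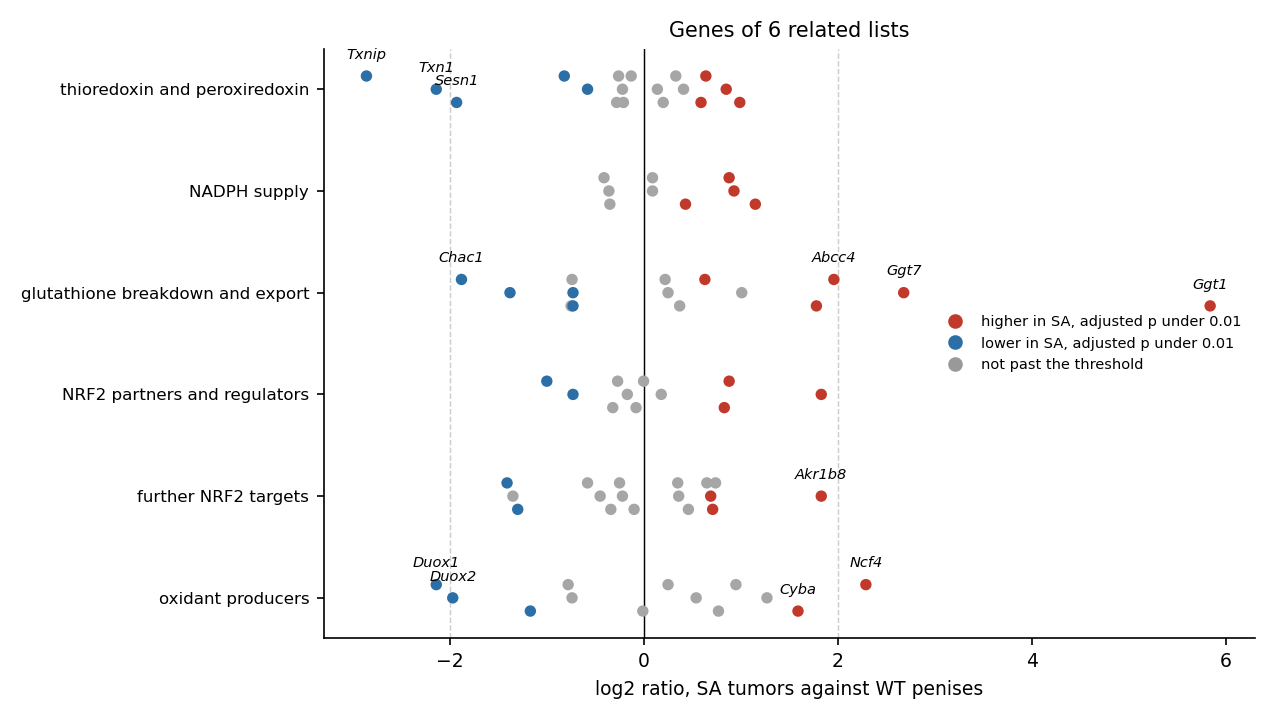
Log2 ratios of SA to WT for the 83 tested genes of 6 related lists, each point a gene, with the fold-change threshold as dashed lines. Ggt1 lies farthest to the right at 5.84 and Txnip farthest to the left at -2.86.

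In the breakdown and export of glutathione, 5 of 15 genes (33.3%) were higher and 4 (26.7%) were lower, beside 20.1% and 17.5% of all genes. Ggt1, the surface enzyme that begins the breakdown of extracellular glutathione, was at 24.0, 24.7 and 30.8 CPM in SA tumors and at 0.407, 0.434 and 0.546 CPM in WT penises (log2 ratio 5.84 ± 0.21, adjusted p = 1.04e-06). Its relative Ggt7 was higher (log2 ratio 2.68 ± 0.19, adjusted p = 1.43e-05), and Ggt6 was lower (-1.38 ± 0.11, adjusted p = 2.80e-05). Abcc4, an efflux pump of organic anions, was higher, with a log2 ratio of 1.96 ± 0.15 (adjusted p = 2.04e-05). Chac1, which degrades glutathione inside the cell, and Oplah, which recovers glutamate from 5-oxoproline, were lower, with log2 ratios of -1.88 and -0.73 (adjusted p = 5.51e-04 and 0.00424), the latter passing in 4 of 6 fits with a sample left out.

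Among partners and regulators of NRF2, 3 of 11 genes (27.3%) were higher and 2 (18.2%) were lower, beside 20.1% and 17.5% of all genes. The small Maf protein genes Mafg and Mafk, whose products pair with NRF2, went in opposite directions (log2 ratios 0.88 and -0.73, adjusted p = 0.00109 and 5.70e-04). The NRF2 relatives Nfe2l3 and Nfe2l1 did so too (0.83 and -1.0, adjusted p = 3.04e-04 and 8.82e-05). Of 17 further NRF2 targets, 3 (17.6%) were higher and 2 (11.8%) were lower, both below the shares of all genes. Akr1b8, an aldo-keto reductase, rose from 14.0 ± 1.20 to 49.3 ± 14.9 CPM (SD, n = 3 each; log2 ratio 1.83, adjusted p = 1.68e-04, edgeR), and Cbr1 and Ftl1 had log2 ratios of 0.71 and 0.69 (adjusted p = 0.00371 and 0.00244) and passed in 2 and 4 of 6 such fits. Ephx1, the microsomal epoxide hydrolase, and Pir were lower, with log2 ratios of -1.41 and -1.30 (adjusted p = 5.82e-06 and 9.59e-05).

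Of 13 tested genes that produce oxidants, 2 (15.4%) were higher and 3 (23.1%) were lower, beside 20.1% and 17.5% of all genes. Duox1, the peroxide-producing oxidase of surface epithelia, was at 76.0, 70.5 and 66.2 CPM against 259, 309 and 368 CPM (log2 ratio -2.14 ± 0.14, adjusted p = 9.92e-06), and Duox2 and the maturation factor Duoxa1 were lower with it (-1.97 and -1.17, adjusted p = 5.12e-04 and 3.48e-05). The genes that rose, Ncf4 (log2 ratio 2.29 ± 0.37, adjusted p = 0.00102) and Cyba (1.59 ± 0.18, adjusted p = 1.33e-04), encode parts of the phagocyte oxidase. Granulocyte markers were higher in the same samples, as given above, and their part in these values was not tested. Cybb, the catalytic subunit of that oxidase, had a log2 ratio of 0.95 ± 0.39 (adjusted p = 0.0745).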

How the data were processed

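RNA sequencing of 3 SA tumors and 3 WT penises (stranded, paired-end, 76 bases per read) was analysed. Reads were aligned to mm10 by the authors with TopHat, checked with FastQC and counted with HTSeq; versions and counting options are not given in the sources used here. The deposited raw counts, FPKM and TPM have 1 row per RefSeq transcript, and the row with the highest mean count stood for its gene. The paper states that Basepair Tech deposited the data. Whether the steps above produced these values was not checked. FPKM were not used, and TPM served only for comparing genes within a sample.

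Genes were tested in edgeR 4.0.16 (R 4.3.3) after filterByExpr (about 10 counts in a library of median size, or 0.38 CPM, in 3 samples and 15 in total), with TMM scaling, the robust quasi-likelihood F-test over the 16336 genes that passed, and Benjamini-Hochberg adjustment at 0.01. DESeq2 (1.42.0), which the authors used, and limma-voom (3.58.1) were alternatives. The standard error is the size of the log2 ratio divided by the square root of F. For a single gene, 3 against 3 samples allow no exact permutation p under 0.1.

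Every symbol of the set is named. From each related list, up to 3 genes in each direction with the largest change past the adjusted p and a mean of at least 100 counts are named. Cybb, G6pdx, Pgls, Pgd and Taldo1 were named after their values were seen. Members and lists were chosen with earlier results of these data known. The labels number the replicates and do not say how samples were processed together.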

Additional observations from a re-analysis of the deposited data

How the results depend on the processing

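Alternatives were RLE, upper quartile and library totals as scaling, no filter or a mean of at least 50 counts, DESeq2, limma-voom, glmTreat (a test against the fold-change threshold), the replicate number as a block, other transcript rows for a gene, and each sample left out; thinning the third SA tumor to the depth of the others was chosen after seeing the data. Of 746 log2 ratios for the 44 members under these settings, 675 kept direction and side of the threshold, 50 (10 genes) lost their call, 7 (5 genes) gained one and 14 (6 genes, none called) turned sign; the causes were not tested. Members past both thresholds numbered 5 higher and 1 lower. They were 3 and 0 with glmTreat, and by library totals 0 were lower. With a sample left out they ranged from 4 to 6 higher and from 1 to 2 lower. At the adjusted p alone, 15 higher and 10 lower became 10 to 15 and 6 to 9 with a sample left out, and 6 were lower by library totals, which split calls over all genes into 5244 higher and 1807 lower (74.4% higher, against 53.4% with TMM). Other pathway genes, 21 higher and 16 lower, ranged from 12 to 23 and from 14 to 19 with a sample left out. Sign turned by library totals for Gpx1 (0.02), Gpx7 (0.21), Gstm4 (0.20) and Hmox1 (0.23), with limma-voom for Gstm4 (0.02), and with upper quartile scaling for Hmox1 (0.0029). With a sample left out the log2 ratio spanned -0.0041 to 0.78 for Gpx3, -0.25 to 0.16 for Gpx7, -0.33 to 0.02 for Gstm4, -0.22 to 0.08 for Hmox1 and -0.14 to 0.54 for Sod3. With the replicate number as a block, 13 members were higher and 7 lower, 5 and 1 past both thresholds, and 17 higher and 17 lower among other pathway genes; the calls of Gstk1, Gstm6, Gstp2, Keap1 and Slc7a11 were lost (adjusted p 0.0130 to 0.0250). Same-numbered samples did not deviate together (correlations -0.135, -0.105 and 0.024), so that the numbers are not taken as pairs. Counts of 3 or fewer, at 0.0244 to 0.137 CPM, limit Gstm3, Gstt4, Gpx6 and Gpx2-ps1.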
